A study of Sus scrofa with 63 samples.

Results

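Solute carriers are membrane proteins that move metabolites, ions, vitamins and drugs across the plasma membrane and the membranes of organelles, and their genes are named by family. The members described here are the genes of the porcine array whose symbol begins with SLC and a family number or with SLCO, without SLC2A5. They were found through probe-sets with a single symbol, and each gene was read from its probe-set with the highest mean over all arrays. This gave 113 genes of the 6765 with such a probe-set, and 170 probe-sets in all. Of these genes 3 encode regulators that are only named after a carrier (SLC2A4RG, SLC9A3R1 and SLC9A3R2), so 110 genes encode carriers. By substrate 21 belong to the mitochondrial family SLC25, 21 carry amino acids and peptides, 14 sugars, 13 metals, 13 inorganic ions, 12 vitamins, choline or nucleosides, 9 organic ions and bile acids, 3 fatty acids or acetyl-CoA, 2 monocarboxylates and 2 nucleotide sugars. The rule uses no measured value apart from the mean that picked the probe-set, but it was set with earlier results of these data known.

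Hepatocytes take up glucose, amino acids, bile acids and metals from the blood through solute carriers and release glucose, metals and other products through them. Carriers of the family SLC25 lie mostly in the inner mitochondrial membrane, where they exchange ADP for ATP and bring in phosphate, acylcarnitines and other substrates. The fetal liver is also a site of blood formation, and the hepatocyte meets milk fat and portal nutrients only after birth.

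Liver RNA of German Landrace offspring was hybridised to 63 Affymetrix arrays, from 16 fetuses of 94 dpc (days after conception), 16 newborns of 1 dpn (days after birth), 15 piglets of 28 dpn and 16 pigs of 188 dpn. The dams of all these animals received a high protein diet during gestation, so every value describes development under that diet. The study asked how the diet of the dam affects liver expression at each stage, but the arrays of offspring of dams fed the adequate diet were not analysed here. The fetuses belonged to another experiment and other sows and were taken by Caesarean section, while the postnatal animals were born after induced parturition and those kept to 28 dpn and 188 dpn were fostered by sows on the adequate diet. The way of killing changed from fetus to newborn and again to the older animals. Fasting overnight was applied at 28 dpn and 188 dpn, and the lightest and heaviest sibs were chosen at 94 dpc and 1 dpn only. Litters were split over 1 dpn, 28 dpn and 188 dpn, so postnatal animals of different stages can share a mother. Sib pair, sex and mother are not in the labels, and the tests do not take them into account. The animals are thus not all independent, and the tests measure the spread between these animals only.

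The values are log2 signals as deposited, and array medians averaged 7.38 in fetuses, 7.23 in newborns, 6.83 at 28 dpn and 6.72 at 188 dpn. The background of an array was set at the level under which 95% of its 23 no-target controls lay, and averaged between 5.64 and 6.10 over the stages. The marker genes of hepatocytes had mean log2 signals between 14.92 and 15.83 on every array, as fits the labelled tissue, and each of the 11 measured was above background at every stage. In spiked poly-A RNAs the 3′ probe-sets exceeded the 5′ probe-sets by 0.227 to 0.456 at 94 dpc and by 0.995 to 1.25 at 1 dpn, so the labelling of the fetal arrays differed from that of the newborn arrays and cannot be told apart from age in this comparison. For the actin probe-sets of the pig RNA itself the same difference lay between −0.21 and 1.28 at 1 dpn and between 1.49 and 2.81 at 28 dpn, without overlap, and averaged 0.81 at 94 dpc and 2.00 at 188 dpn. Its part in the results was not tested. Some arrays stood apart. Of the 79 members above background at every stage, array 6 of 94 dpc held the highest or lowest value of its stage for 30 members and array 4 of 1 dpn for 25 members, against 3 to 18 members for each of the other arrays. Counts without such arrays are given beside the main ones. In whole liver a lower signal from fewer cells of a type and from less RNA per cell cannot be told apart.

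Of the 113 members 79 were above background on at least 50% of the arrays of every stage, 18 at some stages only and 16 at no stage. The stages were close in this respect, with 88 members above background in fetuses, 92 in newborns, 86 at 28 dpn and 87 at 188 dpn. The 16 members not above background at any stage by this rule included SLC5A5, the iodide carrier of the thyroid, SLC6A4, the serotonin carrier of neurons and platelets, and SLC36A2, a carrier of proline and glycine. The mean signal was highest at 94 dpc for 42 members, at 1 dpn for 27, at 28 dpn for 16 and at 188 dpn for 28. These counts include the 16 members above background at no stage. Array medians and background were themselves highest at 94 dpc, and the same count over all genes was not made. The counts therefore do not show a fetal peak of the carriers. Between the animals of a stage the members above background at every stage had median standard deviations of 0.36 in fetuses, 0.47 in newborns, 0.33 at 28 dpn and 0.36 at 188 dpn, so the newborn piglets varied the most by this measure. A member was tested between 2 stages where its signal exceeded the array median in at least 50% of the animals at either of them, which left 82 members tested in at least 1 period and 31 in none.

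From 94 dpc to 1 dpn (period I) 27 of 74 tested members rose and 23 fell (limma, Benjamini-Hochberg adjusted p under 0.05). Over all 12839 tested probe-sets 22.9% rose and 34% fell, and over all tested genes with 1 symbol 28% rose and 30.9% fell, against 36.5% and 31.1% of the members. With the labelling difference of the arrays as a covariate 0 members rose and 0 fell in period I (limma, 8 of 74 at an unadjusted p under 0.05), so each period I value below is one of age and labelling together. From 1 dpn to 28 dpn (period II) 25 of 78 tested members rose and 31 fell, beside 28.8% and 42.9% of all tested probe-sets. These are 32.1% and 39.7% of the members tested, beside 34.1% and 36.8% of all tested genes with 1 symbol. From 28 dpn to 188 dpn (period III) 22 of 76 rose and 22 fell, beside 12.3% and 22.5% of all tested probe-sets. The members that rose in period III were 28.9% of those tested, and 13.6% of all tested genes with 1 symbol rose. Those that fell were 28.9% as well, beside 26.6% of all tested genes with 1 symbol. Over the whole span from 94 dpc to 188 dpn 33 of 76 rose and 31 fell, beside 27% and 53.1% of all tested probe-sets. These are 43.4% and 40.8% of the members tested, beside 33.7% and 46.7% of all tested genes with 1 symbol. With that covariate 53 of 76 members were called over the whole span, but its ranges of 0.227 to 0.456 at 94 dpc and 0.665 to 1.72 at 188 dpn do not overlap, so age and labelling cannot be told apart there either. It shares its arrays with periods I and III and is no independent comparison.

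The median change of all tested probe-sets was −0.10 in period I, −0.15 in period II, −0.07 in period III and −0.37 over the whole span, and that of the members was 0.02, 0.03, −0.02 and −0.01. Over all tested genes with 1 symbol it was −0.027, −0.015, −0.083 and −0.165, so part of the difference to all probe-sets goes with having a symbol. The split between rising and falling calls therefore depended on the scaling of the arrays. After quantile normalization the median of all tested probe-sets was between −0.02 and 0.02 in the 4 comparisons, and after centring each array on its own median over the probe-sets tested it was between 0.01 and 0.08. Of the called members 44.6% rose in period II, and 55.0% and 58.7% under these other scalings. In period III the share moved from 50.0% to 60.0% with centring, and over the whole span from 51.6% to 62.7%. Calls that held under both other scalings numbered 27 rising and 16 falling in period I, 24 and 25 in period II, 20 and 16 in period III and 32 and 25 over the whole span. Without 5 arrays (2 of 94 dpc and 3 of 1 dpn), chosen because earlier results of these data set them apart, 26 rose and 22 fell in period I, 26 and 29 in period II and 33 and 32 over the whole span. Without array 4 of 1 dpn 28 rose and 23 fell in period I, and 25 and 31 in period II.

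**Figure D1:**
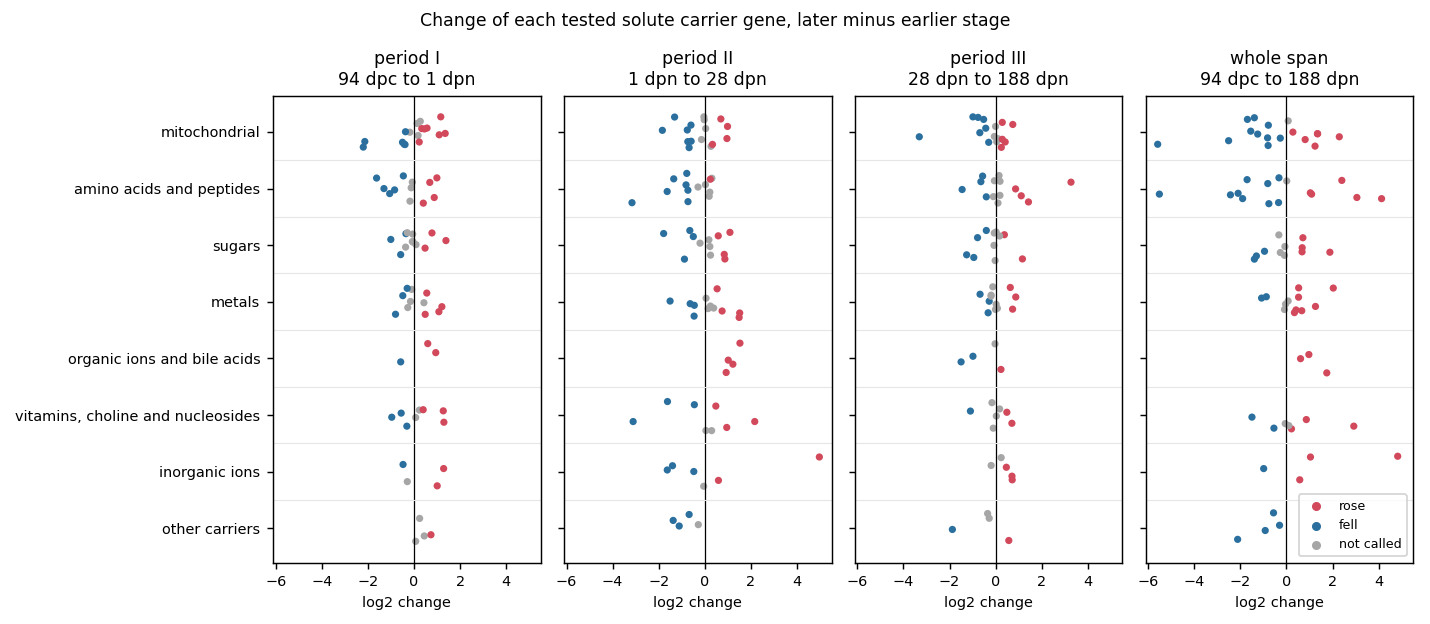
Change on the log2 scale (x axis, later minus earlier stage) of each tested carrier gene, in rows by substrate with random vertical offsets, in periods I to III and over the whole span. Red points rose, blue points fell and grey points did not pass the test. Other carriers are those of monocarboxylates, nucleotide sugars, fatty acids and acetyl-CoA. In period II all 4 tested carriers of organic ions lie to the right of 0, and over the whole span 10 of 17 mitochondrial carriers are blue, beside 53.1% of all tested probe-sets that fell. Among all tested genes with 1 symbol 34.1% rose in period II and 46.7% fell over the whole span.

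Groups of arrays that did not overlap at all between stages were few within a period. In period I 2 members rose and 4 fell without overlap, beside 1.85% and 3.2% of all tested probe-sets, and in period II 5 rose and 2 fell, beside 4.95% and 6.74%. In period III 1 rose and 3 fell without overlap, beside 0.395% and 0.862%. Over the whole span 14 members rose and 11 fell without overlap, which is 18.4% and 14.5% of the 76 tested, beside 7.8% and 16.1% of all tested probe-sets. Shares without overlap among all tested genes with 1 symbol were not counted, for the periods or the whole span. The counts without overlap therefore do not set the members apart. The 14 that rose are SLC17A1, SLC1A2, SLC3A1, SLC5A6, SLC25A4, SLC31A1, SLC37A4, SLC10A1, SLC25A20, SLC25A38, SLC31A2, SLC38A10, SLC46A3 and the regulator SLC2A4RG. The 11 that fell are SLC25A33, SLC15A1, SLC25A21, SLC1A4, SLC16A13, SLC15A2, SLC7A1, SLC25A24, SLC25A12, SLC39A5 and SLC25A6.

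**Figure D2:**
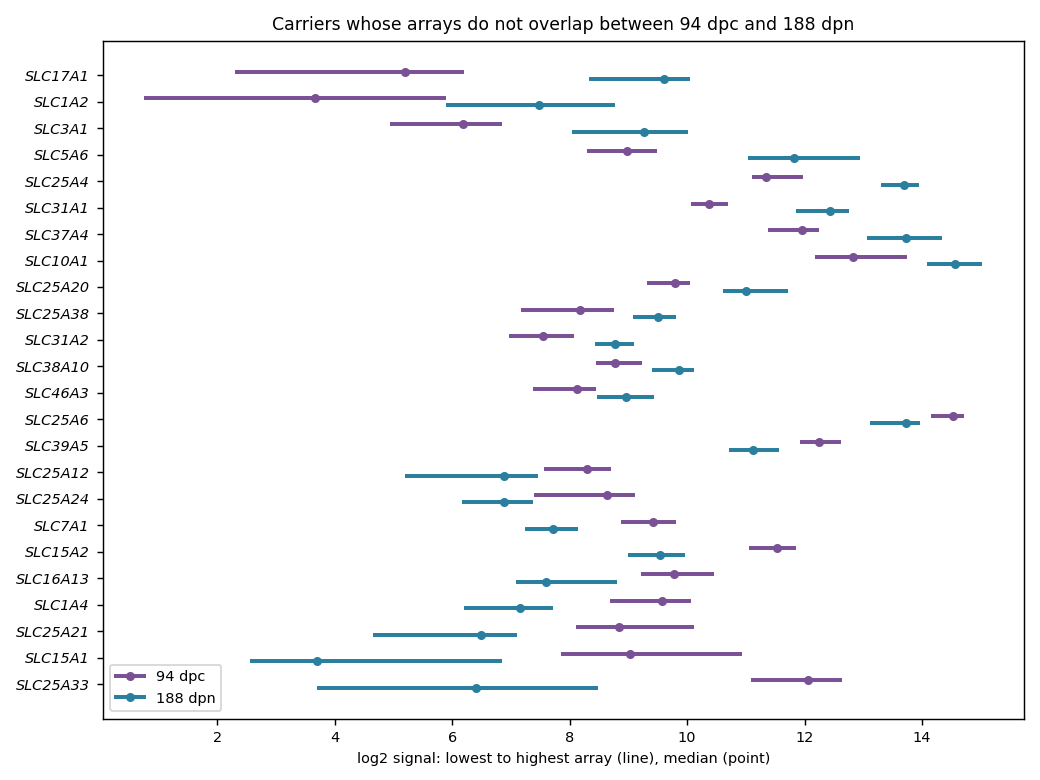
Range of the log2 signal (x axis) from the lowest to the highest array, with the median as a point, at 94 dpc (16 arrays) and 188 dpn (16 arrays) for the carriers whose ranges do not overlap between the stages, ordered by change. The 13 carriers at the top rose and the 11 at the bottom fell, and the regulator SLC2A4RG is not drawn.

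Of the 68 members tested in all 3 periods 18 were called in each of them, 3 always rising (SLC10A1, SLC25A4 and SLC5A6) and 3 always falling (SLC1A4, SLC25A24 and SLC25A33). Periods I and II share the newborn arrays, so their signs are not independent of each other. From period I to period II 15 members rose and then fell and 10 fell and then rose, while 6 rose in both periods and 7 fell in both. The courses of all tested genes were not counted, so none of these counts sets the members apart. The citrate carrier SLC25A1, the insulin-responsive glucose carrier SLC2A4, the zinc carrier SLC30A3 and SLC35A4 passed in none of the 3 periods on their chosen probe-sets. A further probe-set of SLC35A4 fell by 1.98 (adjusted p = 2.64e-07) in period II. The chosen probe-set of SLC35A4 changed by −0.56 (adjusted p = 0.000485) over the whole span. Leaving out the period II calls that were lost under another scaling would shorten the count of members that rose and then fell. SLC12A4, SLC11A1, SLC11A2 and SLC2A8 are among them, and their falls did not hold under either scaling.

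The mitochondrial carriers held the largest single change of the tested members and a change of balance among the ADP/ATP carriers. In period I 7 of 17 tested rose and 6 fell, in period II 4 of 16 rose and 7 fell, in period III 5 of 16 rose and 7 fell, and over the whole span 6 of 17 rose and 10 fell. In the same order 28%, 34.1%, 13.6% and 33.7% of all tested genes with 1 symbol rose, and 30.9%, 36.8%, 26.6% and 46.7% fell. Their median change over the whole span was −0.78, beside −0.37 for all tested probe-sets, of which 53.1% fell. For all tested genes with 1 symbol the median was −0.165. SLC25A4, SLC25A5 and SLC25A6 encode forms of the ADP/ATP carrier, which sends ATP made in mitochondria to the cytosol.

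SLC25A4 ranged from 11.10 to 11.98 (median 11.34) at 94 dpc, from 11.69 to 13.33 (median 12.79) at 1 dpn, from 13.12 to 13.65 (median 13.42) at 28 dpn and from 13.30 to 13.95 (median 13.69) at 188 dpn. Every array of the 2 older stages lay above every fetal array, and the newborn arrays overlapped the fetal and the 28 dpn range. It rose by 1.35 (SE 0.12, adjusted p = 2.48e-11) in period I, by 0.69 (SE 0.12, adjusted p = 3.33e-06) in period II and by 0.25 (SE 0.07, adjusted p = 0.0036) in period III, and the last of these was lost after quantile normalization. Over the whole span the rise was 2.29 (SE 0.08, adjusted p = 4.97e-23). SLC25A5 ranged from 11.59 to 13.15 (median 12.70) at 94 dpc, from 12.72 to 13.89 (median 13.11) at 1 dpn, from 12.33 to 12.96 (median 12.63) at 28 dpn and from 11.57 to 12.25 (median 11.86) at 188 dpn. Its arrays at 188 dpn were all below those at 28 dpn. It rose by 0.56 (SE 0.12, adjusted p = 0.000193) in period I and then changed by −0.59 (SE 0.10, adjusted p = 2.37e-06) and −0.76 (SE 0.08, adjusted p = 1.79e-09). SLC25A6 lay between 14.15 and 14.72 at 94 dpc and between 13.12 and 13.96 at 188 dpn, without overlap, and fell by 0.82 (SE 0.07, adjusted p = 3.9e-12). SLC25A4 thus rose over the whole span while SLC25A6 fell. Within an array, where scaling cancels, the difference of SLC25A4 to SLC25A5 grew from between −0.59 and 1.17 at 94 dpc (set to a mean of 0) to between 2.72 and 3.48 at 188 dpn, and that to SLC25A6 from between −0.47 and 0.73 to between 2.67 and 3.73.

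SLC25A33, a carrier of pyrimidine nucleotides, had the largest change of the tested members. It ranged from 11.08 to 12.64 (median 12.06) at 94 dpc, from 10.65 to 12.46 (median 11.51) at 1 dpn, from 8.79 to 11.24 (median 9.59) at 28 dpn and from 3.70 to 8.49 (median 6.40) at 188 dpn, where 14 of 16 arrays were above background. The pigs at 188 dpn lay below all younger animals, and most of the loss came after 1 dpn. The fall was 1.84 in period II and 3.31 in period III, and over the whole span the change was −5.58 (SE 0.26, adjusted p = 2.34e-19). In period I the change was −0.43 (SE 0.18, adjusted p = 0.0427), which did not hold after centring or without array 4 of 1 dpn (adjusted p = 0.0571). A further probe-set of the gene rose by 1.23 (adjusted p = 0.000924) in that period, so the direction in period I differs between the probe-sets. That probe-set had a mean of 6.30 in fetuses and 7.53 in newborns, and at 188 dpn 0 of 16 arrays exceeded background.

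SLC25A20, the carnitine-acylcarnitine exchanger that admits long-chain fatty acids to mitochondria for oxidation, ranged from 9.32 to 10.05 (median 9.80) at 94 dpc and from 9.26 to 11.47 (median 11.02) at 1 dpn. Array 4 of 1 dpn lay below all fetuses, and the other newborn arrays began at 9.80. The rise in period I was 1.09 (SE 0.15, adjusted p = 3.17e-07), beside a rise of 2.30 (adjusted p = 9.58e-14) of CPT1A, the enzyme that makes the acylcarnitines. SLC25A20 then stayed between 10.47 and 11.71 at the older stages and passed again in period III with 0.29 (adjusted p = 0.0261). SLC25A11, the oxoglutarate carrier of the malate shuttle, rose by 1.16 (SE 0.19, adjusted p = 3.04e-06) in period I, from a median of 7.85 to 8.97, and was at 9.05 and 9.09 later. SLC25A12, the aspartate-glutamate carrier of the same shuttle, rose by 0.45 (adjusted p = 0.006) and then changed by −1.31 (SE 0.23, adjusted p = 7.44e-06) in period II, from a median of 8.70 to 7.70. SLC25A3, the phosphate carrier, rose by 0.23 (adjusted p = 0.0381) in period I and fell by 0.60 (SE 0.09, adjusted p = 3e-07) in period II. A further probe-set of SLC25A3 fell by 1.62 (adjusted p = 1.03e-08) in period II and by 1.90 (adjusted p = 2.9e-07) over the whole span, where the chosen one fell by 0.27 (adjusted p = 0.00272).

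SLC25A37, called mitoferrin 1, brings iron into the mitochondria of red cell precursors. It ranged from 10.05 to 11.27 (median 10.75) at 94 dpc, from 7.76 to 9.18 (median 8.44) at 1 dpn, from 8.77 to 9.92 (median 9.44) at 28 dpn and from 8.97 to 10.10 (median 9.38) at 188 dpn. No newborn array reached the fetal range, and the medians of the older stages lay between. The changes were −2.20 (SE 0.14, adjusted p = 4.24e-15) in period I and 0.96 (SE 0.12, adjusted p = 4.18e-08) in period II. Markers of red cell precursors are given beside it. Of the 7 measured markers 6 fell in period I with a median of −2.78, and the mean log2 signal of the list per array was between 10.62 and 11.72 at 94 dpc, between 7.66 and 8.78 at 1 dpn and between 8.17 and 9.71 at 28 dpn. In period II 4 of 5 tested markers rose, among them ALAS2, the first enzyme of heme synthesis in red cells, by 1.47 (adjusted p = 2.35e-08). KLF1 and RHCE were not tested in that period, and their means were lower at the later stage. The mean of KLF1 was 7.01 at 1 dpn and 6.08 at 28 dpn, and that of RHCE 6.43 and 6.29. Of all tested genes with 1 symbol 30.9% fell in period I and 34.1% rose in period II. All 7 markers were above background on some arrays of every stage. The part of these cells in the change of SLC25A37 was not tested. TFRC, the receptor that takes up iron bound to transferrin, changed by −2.19 (adjusted p = 7.08e-05) in period I and fell over the whole span (adjusted p = 7.81e-18), a change whose size is not exact since 0 of 15 arrays of 28 dpn and 1 of 16 of 188 dpn were above background.

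SLC25A38, which brings in glycine for heme synthesis, had a difference of 0.27 (adjusted p = 0.15) in period I, 0.33 (adjusted p = 0.0396) in period II and 0.74 (SE 0.09, adjusted p = 5.55e-08) in period III. Its arrays lay between 7.18 and 8.75 at 94 dpc and between 9.08 and 9.81 at 188 dpn, without overlap. SLC25A39, a glutathione carrier, changed by −0.39 (adjusted p = 0.00171), −0.68 (SE 0.10, adjusted p = 1.93e-07) and 0.29 (adjusted p = 0.0254). SLC25A21, a carrier of oxodicarboxylates, fell by 2.14 (SE 0.19, adjusted p = 4.01e-11) in period I without overlap, from a median of 8.84 to 6.75, and was at 6.75 and 6.49 later. SLC25A24, a carrier of ATP-Mg and phosphate, fell by 1.69 (SE 0.15, adjusted p = 3.3e-12) over the whole span, of which −0.76 (adjusted p = 0.000584) in period II held under both other scalings.

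Proteins of the mitochondrial membranes without an SLC symbol gave a mixed course too. In period I 3 of 9 tested rose and 2 fell, beside 28% and 30.9% of all tested genes with 1 symbol. The rises included 1.06 for MTCH2 and 0.89 for VDAC2, a pore of the outer membrane. TSPO, a translocator protein of the outer membrane, changed by −2.25 (adjusted p = 3.98e-09) in period I and by 1.16 (adjusted p = 6.9e-05) in period II, the same signs as SLC25A37.

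**Figure D3:**
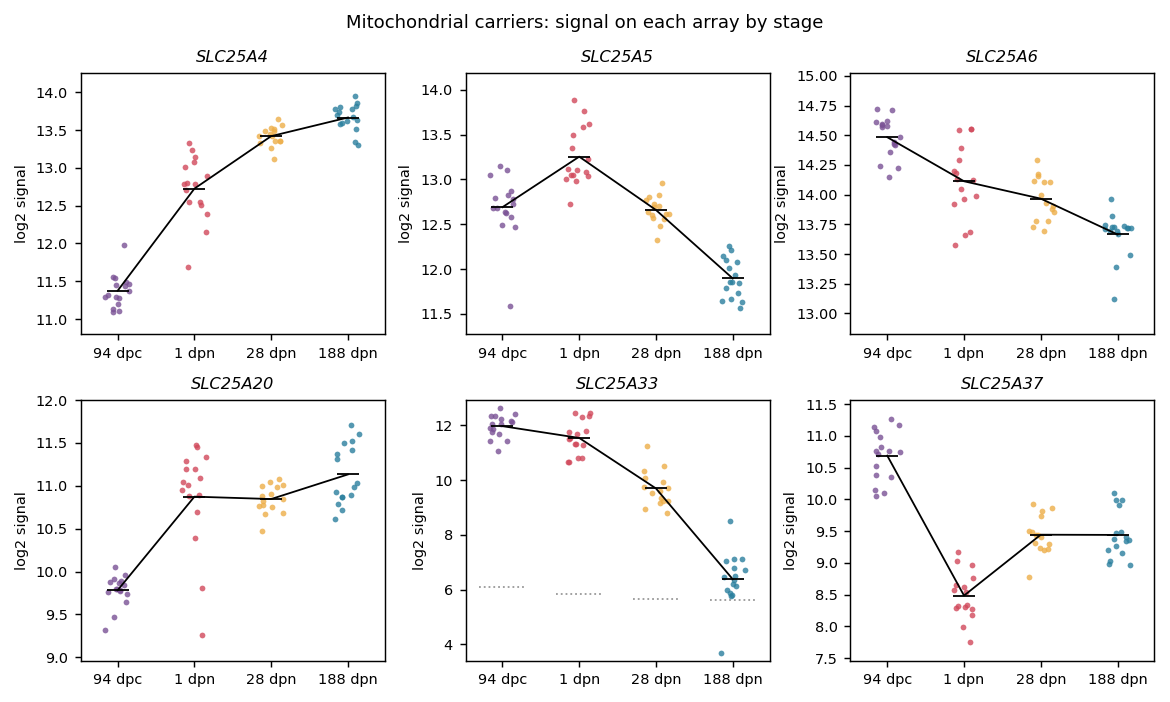
Log2 signal (y axis, own range in each panel) of 6 mitochondrial carriers on each array, in columns by stage with random horizontal offsets. Black bars joined by lines are stage means, and dotted grey lines are the mean background of the stage where it falls in the range. SLC25A4 climbs from 94 dpc to 188 dpn while SLC25A33 drops to a median of 6.40.

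Among the carriers of amino acids and peptides SLC1A4, SLC7A1 and both peptide carriers fell over the whole span, and SLC1A2 and SLC38A1 rose. In period I 4 of 12 tested rose and 5 fell, in period II 1 of 13 rose and 7 fell, in period III 4 of 14 rose and 4 fell, and over the whole span 5 of 15 rose and 9 fell, of which 5 and 7 held under both other scalings. Of all tested probe-sets 28.8% rose and 42.9% fell in period II, and 27% and 53.1% over the whole span. The shares of all tested genes with 1 symbol were 34.1% and 36.8% in period II and 33.7% and 46.7% over the whole span. They were 28% and 30.9% in period I and 13.6% and 26.6% in period III. The median change in period II was −0.73, beside −0.15 for all tested probe-sets and −0.015 for all tested genes with 1 symbol.

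The carriers of small peptides fell together. SLC15A1, the peptide carrier of the intestinal brush border, ranged from 7.85 to 10.94 (median 9.03) at 94 dpc, from 4.95 to 11.17 (median 7.41) at 1 dpn, from 2.99 to 5.99 (median 4.29) at 28 dpn and from 2.55 to 6.85 (median 3.70) at 188 dpn. The newborn piglets reached from above the highest fetus into the range of the older stages, and only 3 of 15 and 2 of 16 arrays were above background at the older stages. The change was −1.62 (SE 0.45, adjusted p = 0.0025) in period I and −3.16 (SE 0.47, adjusted p = 5.88e-07) in period II, and the size of the latter is not exact because of the low signals at 28 dpn. SLC15A2, its relative of higher affinity, ranged from 11.06 to 11.86 (median 11.53) at 94 dpc, from 9.27 to 10.73 (median 10.21) at 1 dpn, from 8.58 to 9.90 (median 9.36) at 28 dpn and from 9.00 to 9.97 (median 9.54) at 188 dpn. All fetuses lay above all later animals. It fell by 1.31 (SE 0.13, adjusted p = 2.84e-10) in period I and by 0.78 (SE 0.14, adjusted p = 6.92e-06) in period II.

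SLC1A4, a carrier of alanine, serine and cysteine, had stage medians of 9.58, 8.52, 7.60 and 7.15 in order of age and fell in each period, by 1.06 (SE 0.14, adjusted p = 1.7e-07), 0.73 (SE 0.15, adjusted p = 6.73e-05) and 0.64 (SE 0.15, adjusted p = 0.00121). SLC7A1, the carrier of arginine and lysine, ranged from 8.88 to 9.81 at 94 dpc and from 7.24 to 8.15 at 188 dpn, without overlap, and fell by 1.71 (SE 0.09, adjusted p = 1.07e-17). The newborn piglets spread from 7.00 to 9.82 across both ranges. SLC1A5, a glutamine carrier, changed by −0.41 (adjusted p = 0.000923) in period III alone of the 3 periods. SLC38A9, the lysosomal arginine sensor, changed by −0.73 (SE 0.13, adjusted p = 1.17e-05) in period II.

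SLC3A2, the heavy chain shared by several exchangers of amino acids, ranged from 8.90 to 9.57 (median 9.11) at 94 dpc, from 8.77 to 10.28 (median 9.45) at 1 dpn, from 7.70 to 8.77 (median 8.15) at 28 dpn and from 7.62 to 9.11 (median 8.21) at 188 dpn. The ranges of 1 dpn and 28 dpn met at their ends only. It rose by 0.40 (adjusted p = 0.00184) and then changed by −1.35 (SE 0.12, adjusted p = 3.4e-11). SLC7A7, the light chain that joins it for cationic amino acids, changed by −0.46 (SE 0.09, adjusted p = 7.78e-05) in period I and by 0.24 (adjusted p = 0.0411) in period II, and the latter was lost without array 4 of 1 dpn (adjusted p = 0.0632) and without the 5 arrays set apart (adjusted p = 0.0596). With the mean of the probe-sets of SLC7A7 the period II change was −0.51 (adjusted p = 0.0141), so its direction there depends on the probe-set.

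The heavy chain SLC3A1 and its light chain SLC7A9, which together take up cystine and dibasic amino acids in kidney and gut, parted after 28 dpn. SLC7A9 ranged from 8.03 to 10.01 (median 8.76) at 94 dpc, from 8.66 to 10.92 (median 9.83) at 1 dpn, from 7.38 to 9.17 (median 8.07) at 28 dpn and from 4.19 to 8.40 (median 7.07) at 188 dpn. It rose by 0.99 (SE 0.20, adjusted p = 9.75e-05) in period I and then changed by −1.63 (SE 0.21, adjusted p = 5.19e-08) and −1.45 (SE 0.34, adjusted p = 0.00114). SLC3A1 lay between 3.76 and 7.61 on all arrays of the 3 younger stages and between 8.04 and 10.01 at 188 dpn, without overlap. Over the whole span its change was 3.06 (SE 0.18, adjusted p = 2.2e-16). A further probe-set of SLC3A1 went the opposite way. It ranged from 6.01 to 8.19 (median 7.43) at 94 dpc and from 1.49 to 6.03 (median 3.59) at 188 dpn, where 5 of 16 arrays were above background, and changed by −2.87 (adjusted p = 4.72e-09) in period II and −3.53 (adjusted p = 5.07e-09) over the whole span. The direction of SLC3A1 therefore depends on the probe-set, and which part of the transcript each one reads was not examined here.

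SLC1A2, the glutamate carrier known from astrocytes and from hepatocytes around the central vein, exceeded background in 1 of 16 fetuses, 10 of 16 newborns, 12 of 15 piglets of 28 dpn and 16 of 16 pigs of 188 dpn. Its median signal was 3.67, 6.12, 6.48 and 7.48 at these stages. It rose by 1.11 (SE 0.33, adjusted p = 0.00783) in period III, and by 4.13 (SE 0.50, adjusted p = 5.71e-09) over the whole span, a size that is not exact because of the fetal signals near background. SLC38A1, a glutamine carrier, rose by 1.42 (SE 0.26, adjusted p = 5.81e-05) in period III, from a median of 6.99 to 8.31. SLC6A8, the creatine carrier, rose by 0.86 (SE 0.17, adjusted p = 0.000118) in the same period, from 8.64 to 9.53. SLC38A10 rose by 0.88 (SE 0.12, adjusted p = 3.91e-07) in period I. SLC1A1, a glutamate carrier, rose by 0.68 (adjusted p = 0.000949) in period I and changed by −0.82 (SE 0.16, adjusted p = 5.12e-05) in period II, and over the whole span its difference was 0.01 (adjusted p = 0.932).

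Enzymes that use amino acid nitrogen are given beside these carriers. In period I CPS1 of the urea cycle rose by 0.52 with an adjusted p of 0.00185, ASS1 by 1.75 (adjusted p = 1.12e-09) and ARG1 by 0.85 (adjusted p = 0.000373). The list they come from also holds HK1, CPT1A and CPT2, which do not act on amino acid nitrogen. In period II 1 of the 6 tested enzymes of this wider list rose and 4 fell, of which 1 and 2 held under both other scalings. Of all tested genes with 1 symbol 34.1% rose and 36.8% fell in that period. Both falls that held are of the urea cycle, ARG1 with −1.48 (adjusted p = 3e-07) and OTC with −0.69 (adjusted p = 0.000447), while that of CPS1 (−0.47, adjusted p = 0.0063) was lost after centring. In period III OTC rose by 0.94 (adjusted p = 8.51e-08) and ARG1 by 1.67 (adjusted p = 4.8e-10).

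**Figure D4:**
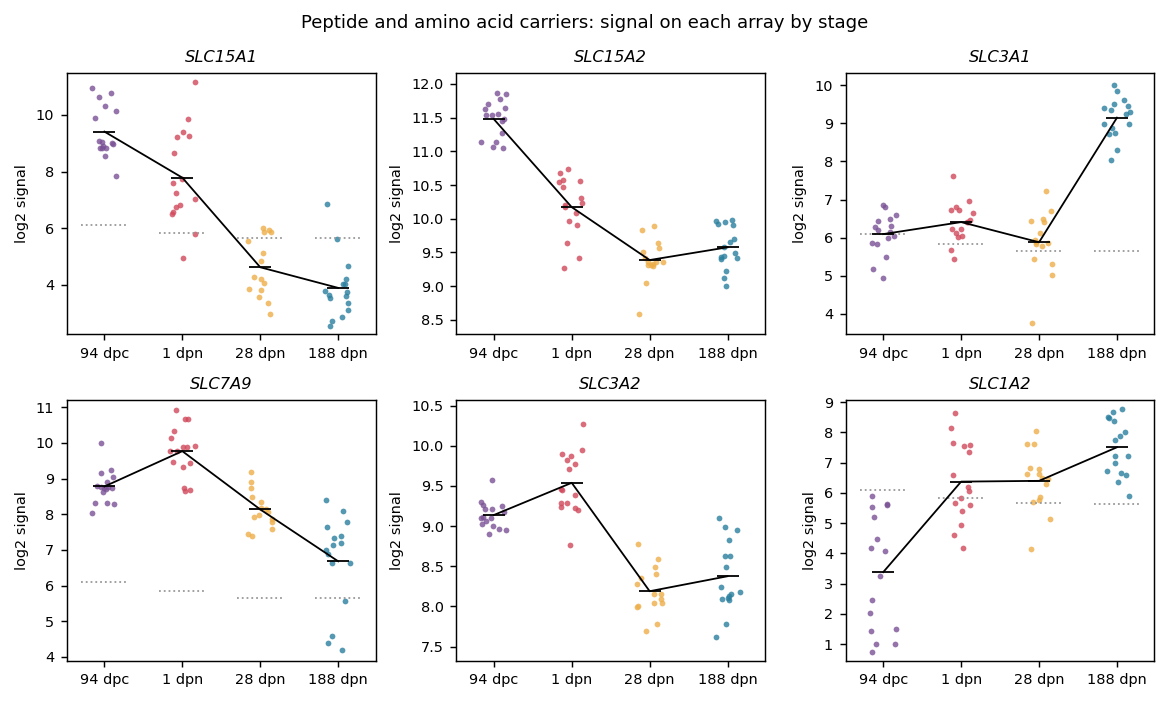
Log2 signal (y axis, own range in each panel) of 6 carriers of peptides and amino acids, or their heavy chains, on each array, in columns by stage with random horizontal offsets. Black bars joined by lines are stage means, and dotted grey lines are the mean background of the stage where it falls in the range. SLC15A1 and SLC15A2 are lower at both older stages than in the fetus, and SLC3A1 stands at 8.04 or more at 188 dpn only.

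Among the sugar carriers SLC2A1 fell and SLC37A4 rose with age, and SLC2A2 was highest in the newborn. In period I 3 of 12 tested rose and 3 fell, in period II 4 of 12 rose and 4 fell, in period III 2 of 11 rose and 4 fell, and over the whole span 4 of 11 rose and 3 fell. In the same order 28%, 34.1%, 13.6% and 33.7% of all tested genes with 1 symbol rose, and 30.9%, 36.8%, 26.6% and 46.7% fell. SLC2A1, the glucose carrier of red cells and many fetal tissues, ranged from 8.84 to 10.32 (median 9.66) at 94 dpc, from 8.05 to 10.30 (median 9.11) at 1 dpn, from 7.77 to 9.42 (median 8.32) at 28 dpn and from 8.06 to 8.97 (median 8.39) at 188 dpn. Ranges of neighbouring stages overlapped. It fell by 0.58 (SE 0.17, adjusted p = 0.00494) in period I and by 0.65 (SE 0.17, adjusted p = 0.00123) in period II.

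SLC2A2, the low-affinity glucose carrier of hepatocytes, ranged from 9.30 to 11.00 (median 10.69) at 94 dpc, from 10.64 to 12.13 (median 11.38) at 1 dpn, from 10.09 to 10.89 (median 10.55) at 28 dpn and from 9.83 to 11.14 (median 10.50) at 188 dpn. The newborn stage had the highest median, and the ranges of all stages overlapped. It rose by 0.78 (SE 0.15, adjusted p = 3.24e-05) in period I and changed by −0.88 (SE 0.13, adjusted p = 2.07e-07) in period II. Over the whole span its change was −0.09 (adjusted p = 0.574), and 0.36 (adjusted p = 0.0224) after centring. The difference of SLC2A2 to SLC2A1 within an array was between −0.82 and 0.99 at 94 dpc (set to a mean of 0) and between 0.14 and 2.14 at 188 dpn, with means of 1.36, 1.12 and 1.22 at the postnatal stages.

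SLC37A4 moves glucose 6-phosphate into the endoplasmic reticulum, where glucose is set free for export. It ranged from 11.37 to 12.24 (median 11.95) at 94 dpc, from 11.66 to 13.27 (median 12.45) at 1 dpn, from 11.95 to 13.10 (median 12.63) at 28 dpn and from 13.06 to 14.34 (median 13.72) at 188 dpn. The pigs at 188 dpn lay above all fetuses, and their range met that of 28 dpn at its end only. The rise was 0.48 (SE 0.13, adjusted p = 0.00309) in period I and 1.16 (SE 0.12, adjusted p = 2.21e-09) in period III. In period II it was 0.25 (adjusted p = 0.141), and 0.35 (adjusted p = 0.041) without the 5 arrays set apart. A further probe-set of SLC37A4 rose by 0.79 (adjusted p = 1.66e-05) in period II.

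SLC2A3, the high-affinity carrier of neurons and leukocytes, changed by −1.01 (SE 0.19, adjusted p = 3.48e-05), 0.84 (SE 0.16, adjusted p = 3e-05) and −0.79 (SE 0.11, adjusted p = 5.65e-07), with no overlap in period III. Macrophage markers rose in 3 of 8 genes in period I and in 5 of 8 in period II and fell in 8 of 8 in period III (6 under both other scalings), where the mean log2 signal of the list went from between 11.18 and 12.04 to between 10.41 and 11.10. Of the neutrophil markers 4 of 4 fell in period I, and 2 of 3 tested fell in each of periods II and III. Of the lymphocyte markers none was tested in period I, 3 of 3 rose in period II and 2 of 3 fell in period III. Of all tested genes with 1 symbol 28%, 34.1% and 13.6% rose in periods I to III, and 30.9%, 36.8% and 26.6% fell. These lists are short, and their counts are given beside those shares only. The part of these cells in the course of SLC2A3 was not tested. SLC2A8, an intracellular sugar carrier, rose by 1.38 (SE 0.17, adjusted p = 3.75e-08) in period I and fell by 0.95 (SE 0.18, adjusted p = 0.000123) in period III. In period II SLC50A1 rose by 1.09 (SE 0.14, adjusted p = 2.67e-08), and SLC37A1, a relative of SLC37A4, rose by 0.87 (adjusted p = 0.00109) and then fell by 1.26 (SE 0.21, adjusted p = 2.14e-05). SLC5A10 and SLC5A1, which couple sugar to sodium, changed by −1.79 (SE 0.42, adjusted p = 0.000332) in period II and −1.39 (SE 0.21, adjusted p = 4.53e-07) over the whole span.

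Among the metal carriers the copper carriers rose between 1 dpn and 28 dpn. In period I 4 of 11 tested rose and 3 fell, in period II 4 of 12 rose and 4 fell, in period III 3 of 12 rose and 3 fell, and over the whole span 7 of 12 rose and 2 fell, all of which held under both other scalings. In the same order 28%, 34.1%, 13.6% and 33.7% of all tested genes with 1 symbol rose, and 30.9%, 36.8%, 26.6% and 46.7% fell. SLC31A1, the main copper importer of the plasma membrane, ranged from 10.07 to 10.69 (median 10.37) at 94 dpc, from 10.54 to 11.76 (median 10.89) at 1 dpn, from 12.11 to 12.81 (median 12.39) at 28 dpn and from 11.86 to 12.76 (median 12.44) at 188 dpn. Every animal of the 2 older stages lay above every fetus and newborn. It rose by 0.55 (SE 0.10, adjusted p = 1.01e-05) in period I and by 1.49 (SE 0.10, adjusted p = 2.96e-14) in period II, and changed by −0.01 (adjusted p = 0.957) in period III. SLC31A2, a relative found in intracellular membranes, ranged from 6.97 to 8.08 (median 7.54) at 94 dpc, from 5.49 to 7.85 (median 7.50) at 1 dpn, from 8.31 to 9.13 (median 8.78) at 28 dpn and from 8.44 to 9.10 (median 8.77) at 188 dpn. It showed the same step, with a rise of 1.51 (SE 0.16, adjusted p = 4.78e-10) in period II without overlap.

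Zinc carriers of the families SLC30 and SLC39 moved in different directions. SLC39A5 fell by 0.80 (SE 0.07, adjusted p = 3.72e-11) in period I without overlap, from between 11.93 and 12.62 to between 11.00 and 11.73. SLC39A1 changed by 0.75 (SE 0.10, adjusted p = 1.46e-07) in period II, but its probe-sets disagreed in period I, where the chosen one changed by −0.30 (adjusted p = 0.0113, lost after centring) and another rose by 0.20 (adjusted p = 0.045). SLC30A5 fell by 1.51 (SE 0.22, adjusted p = 3.19e-07) in period II and rose by 0.74 (SE 0.22, adjusted p = 0.00949) in period III. SLC39A4 changed by −0.49 (adjusted p = 0.0133) in period I, which was lost after quantile normalization and without the 5 arrays set apart, and rose by 0.64 (adjusted p = 0.015) in period III.

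SLC39A14, which imports zinc and iron not bound to transferrin and is induced by inflammation, ranged from 8.78 to 10.60 (median 9.27) at 94 dpc, from 9.10 to 11.82 (median 9.66) at 1 dpn, from 8.74 to 9.64 (median 9.26) at 28 dpn and from 8.69 to 10.71 (median 10.19) at 188 dpn. All stages overlapped. It passed in period II with −0.64 (SE 0.18, adjusted p = 0.00198) and in period III with 0.87 (SE 0.15, adjusted p = 2.57e-05), and in period I its change was 0.43 (adjusted p = 0.0576), or 0.49 (adjusted p = 0.0427) without the 5 arrays set apart, and it passed under both other scalings. The value of 11.82 belongs to array 4 of 1 dpn, and the other newborn arrays ended at 10.43. A further probe-set of SLC39A14 rose by 0.96 (adjusted p = 5.57e-05) in period I and fell by 1.43 (adjusted p = 3.94e-08) in period II. Over the whole span that probe-set changed by 0.07 (adjusted p = 0.64), where the chosen one rose by 0.66 (adjusted p = 0.000768). MT1A, a metallothionein that binds zinc and copper, changed by −0.67 (adjusted p = 0.00286, lost after quantile normalization) in period I and rose by 0.85 (adjusted p = 0.00283) in period III.

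SLC11A1, the metal carrier of macrophage phagosomes, ranged from 6.20 to 7.61 (median 7.38) at 94 dpc, from 7.88 to 9.51 (median 8.24) at 1 dpn, from 6.62 to 8.72 (median 7.98) at 28 dpn and from 6.38 to 8.46 (median 7.77) at 188 dpn. Newborn and fetal arrays did not overlap, and the later ranges overlapped both. It rose by 1.08 (SE 0.14, adjusted p = 7.64e-08) in period I. Of the 8 macrophage markers 3 rose in that period, among them CD14 by 1.58 (adjusted p = 6.07e-10) and CD163 by 1.46 (adjusted p = 1.26e-06), and the mean log2 signal of the list was between 6.84 and 10.61 at 94 dpc and between 9.94 and 11.42 at 1 dpn. Of all tested genes with 1 symbol 28% rose in period I and 34.1% in period II. In period II, where 5 of these markers rose, SLC11A1 changed by −0.47 (adjusted p = 0.0199), which was lost under both other scalings. The part of macrophages in these changes was not tested. SLC11A2, the iron importer of endosomes and the gut, rose by 1.21 (SE 0.19, adjusted p = 2.07e-06) in period I and fell by 0.68 (SE 0.14, adjusted p = 0.000176) in period III. In period II SLC41A1, a magnesium carrier, rose by 0.53 (SE 0.13, adjusted p = 0.000577).

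Carriers of organic ions and bile acids rose in period II, as far as they were tested. Of 9 members 3 were tested in period I and over the whole span and 4 in periods II and III. In period II 4 of 4 rose, and over the whole span 3 of 3, of which SLCO2B1 did not hold under both other scalings. Beside them 34.1% of all tested genes with 1 symbol rose in period II and 33.7% over the whole span. SLC10A1 takes up bile acids from the blood together with sodium and is a defining carrier of the hepatocyte. It ranged from 12.18 to 13.75 (median 12.82) at 94 dpc, from 12.07 to 14.33 (median 13.50) at 1 dpn, from 14.05 to 14.73 (median 14.39) at 28 dpn and from 14.09 to 15.03 (median 14.57) at 188 dpn. Both older stages lay wholly above the fetal range, while the newborn range spread over the fetal range and into the older ones. It rose by 0.59 (SE 0.17, adjusted p = 0.00308), by 0.92 (SE 0.16, adjusted p = 3.97e-06) and by 0.23 (adjusted p = 0.0491), and the last of these was lost after quantile normalization.

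SLCO2B1, a carrier of steroid sulfates and drugs, ranged from 11.62 to 12.58 (median 12.22) at 94 dpc, from 10.58 to 12.38 (median 11.71) at 1 dpn, from 12.39 to 13.12 (median 12.94) at 28 dpn and from 12.15 to 13.27 (median 12.77) at 188 dpn. All arrays of 28 dpn lay above those of 1 dpn. It fell by 0.58 (SE 0.15, adjusted p = 0.0011) in period I, and in period II it rose by 1.22 (SE 0.15, adjusted p = 1.19e-08). SLC22A5, the carnitine importer, had medians of 7.10, 8.02, 8.99 and 8.00 and changed by 0.94 (SE 0.24, adjusted p = 0.00118), 1.01 (SE 0.20, adjusted p = 4.52e-05) and −0.98 (SE 0.15, adjusted p = 3.64e-06). SLC22A3, a carrier of organic cations, peaked at 28 dpn in the same way, with 1.52 (SE 0.23, adjusted p = 8.01e-07) in period II and −1.50 (SE 0.22, adjusted p = 1.89e-06) in period III, and exceeded background in 1 of 16 fetuses.

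SLC22A2, the organic cation carrier of the kidney, exceeded background in 15 of 16 fetuses and on 1 of 16, 1 of 15 and 1 of 16 arrays later. Its signal ranged from 5.59 to 7.90 (median 6.80) at 94 dpc and from 0.31 to 5.95 (median 4.73) at 1 dpn. It stayed under the filter on level and was not tested in the main comparison, and without a filter its change in period I was −3.00 (SE 0.44, adjusted p = 1.56e-06). SLC22A6 fell likewise by 1.65 (adjusted p = 0.000439) without a filter.

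The exporters of the bile canaliculus and the blood side from the ABC family, which pass on what these carriers take up, are given beside them. ABCB11, the bile salt pump, changed by −0.13 (adjusted p = 0.595) in period I and −2.24 (adjusted p = 6.51e-11) in period II, while SLC10A1 rose. ABCC2, the pump of bilirubin conjugates, changed by 0.71 (adjusted p = 0.0046) and −0.98 (adjusted p = 0.000115), and ABCB1, the drug pump, by 1.54 (adjusted p = 4.93e-10) and −1.01 (adjusted p = 5.7e-07). Of 6 exporters tested in period II 1 rose and 3 fell, beside 34.1% and 36.8% of all tested genes with 1 symbol.

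Carriers of vitamins, choline and nucleosides held some of the largest swings. In period I 3 of 8 tested rose and 3 fell, in period II 3 of 8 rose and 3 fell, in period III 2 of 7 rose and 1 fell, and over the whole span 3 of 7 rose and 2 fell. In the same order 28%, 34.1%, 13.6% and 33.7% of all tested genes with 1 symbol rose, and 30.9%, 36.8%, 26.6% and 46.7% fell. SLC5A6, which takes up biotin and pantothenate, ranged from 8.29 to 9.48 (median 8.97) at 94 dpc, from 9.34 to 11.30 (median 10.05) at 1 dpn, from 10.53 to 11.92 (median 11.19) at 28 dpn and from 11.04 to 12.94 (median 11.82) at 188 dpn. The median was higher at each stage than at the stage before, neighbouring ranges overlapped, and the fetal and 28 dpn ranges were apart. It rose by 1.27 (SE 0.16, adjusted p = 2.82e-08), 0.95 (SE 0.17, adjusted p = 8.67e-06) and 0.70 (SE 0.15, adjusted p = 0.000446).

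SLC23A1, a carrier of vitamin C, ranged from 4.32 to 7.65 (median 6.92) at 94 dpc and from 6.34 to 8.56 (median 8.03) at 1 dpn, and rose by 1.29 (SE 0.30, adjusted p = 0.000441). At 28 dpn it ranged from 2.62 to 6.22 with 2 of 15 arrays above background, so the size of its fall after birth is not exact. SLC29A1, a nucleoside carrier, ranged from 8.75 to 10.16 (median 9.62) at 1 dpn and from 7.12 to 8.68 (median 7.94) at 28 dpn, without overlap, and fell by 1.62 (SE 0.15, adjusted p = 4.58e-11). SLC46A2 fell by 0.97 (SE 0.23, adjusted p = 0.000615), rose by 2.16 (SE 0.22, adjusted p = 4e-10) without overlap and fell by 1.09 (SE 0.15, adjusted p = 5.61e-07), from a median of 7.79 to 6.84, 8.94 and 7.68. SLC46A1, the proton-coupled folate carrier, rose by 0.49 (SE 0.10, adjusted p = 0.000156) in period III, and 2 of its probe-sets were called in opposite directions over the whole span, by 0.22 (adjusted p = 0.0258) and −0.54 (adjusted p = 0.00283). The same held for SLC44A2, a choline carrier, in period II, with 0.48 (adjusted p = 0.000733) for the chosen probe-set and −0.41 (adjusted p = 0.00621) and −1.15 (adjusted p = 1.85e-07) for the others. SLC46A3, a lysosomal carrier, rose by 0.86 (SE 0.11, adjusted p = 9.9e-09) over the whole span.

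Of the carriers of inorganic ions few were expressed above the filter. In period I 2 of 4 tested rose and 1 fell, and in period II 2 of 6 rose and 3 fell. Among all tested genes with 1 symbol 28% rose and 30.9% fell in period I, and 34.1% and 36.8% in period II. SLC17A1, which carries phosphate and urate, exceeded background in 3 of 16 fetuses and 3 of 16 newborns, but on 15 of 15 and 16 of 16 at the older stages. Its signal ranged from 1.31 to 7.25 (median 3.61) at 1 dpn, from 6.94 to 9.56 (median 8.84) at 28 dpn and from 8.33 to 10.05 (median 9.61) at 188 dpn. The newborn range met that of 28 dpn at its upper end only. The change was 4.97 (SE 0.47, adjusted p = 7.7e-11) in period II, a size that is not exact because of the low signals at 1 dpn, and 0.72 (SE 0.19, adjusted p = 0.00414) in period III. SLC12A4, a potassium-chloride carrier, rose by 1.28 (SE 0.11, adjusted p = 6.09e-12) in period I without overlap, from between 8.13 and 8.90 to between 9.03 and 10.34. SLC4A2, a chloride-bicarbonate exchanger, rose by 1.00 (SE 0.32, adjusted p = 0.00747) and fell by 1.63 (SE 0.28, adjusted p = 6.32e-06), and SLC26A6, an anion exchanger, fell by 1.40 (SE 0.18, adjusted p = 5.69e-08) in period II. SLC26A11, a sulfate carrier, rose in period II on the chosen probe-set by 0.59 (adjusted p = 0.00279) and fell on another by 0.72 (adjusted p = 0.000204).

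The remaining families have few members. SLC16A13, a carrier of monocarboxylates, ranged from 9.21 to 10.46 (median 9.78) at 94 dpc, from 8.28 to 11.32 (median 10.55) at 1 dpn, from 8.12 to 10.36 (median 9.69) at 28 dpn and from 7.09 to 8.80 (median 7.60) at 188 dpn. The oldest pigs lay below the fetuses, and the fall in period III was 1.88 (SE 0.18, adjusted p = 9.96e-10). BSG and EMB, chaperones that bring monocarboxylate carriers to the membrane, changed over the whole span by 0.54 (adjusted p = 3.06e-06) and −5.55 (adjusted p = 5.8e-20). SLC33A1, which moves acetyl-CoA into the endoplasmic reticulum, rose by 0.73 (SE 0.11, adjusted p = 1.07e-06) in period I and fell by 1.37 (SE 0.13, adjusted p = 6.37e-11) in period II, with medians of 9.69, 10.36, 8.91 and 8.72. SLC35A3, a carrier of UDP-N-acetylglucosamine in the Golgi, changed by −1.11 (SE 0.18, adjusted p = 1.64e-06) in period II and 0.57 (adjusted p = 0.0126) in period III. Of the 3 regulators SLC2A4RG, a transcription factor named after the gene of the insulin-responsive glucose carrier, fell by 1.15 (SE 0.14, adjusted p = 1.9e-08) and then rose by 1.85 (SE 0.15, adjusted p = 1.46e-12) and 0.60 (SE 0.09, adjusted p = 4.06e-06), while SLC2A4 itself passed in none of these periods.

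**Figure D5:**
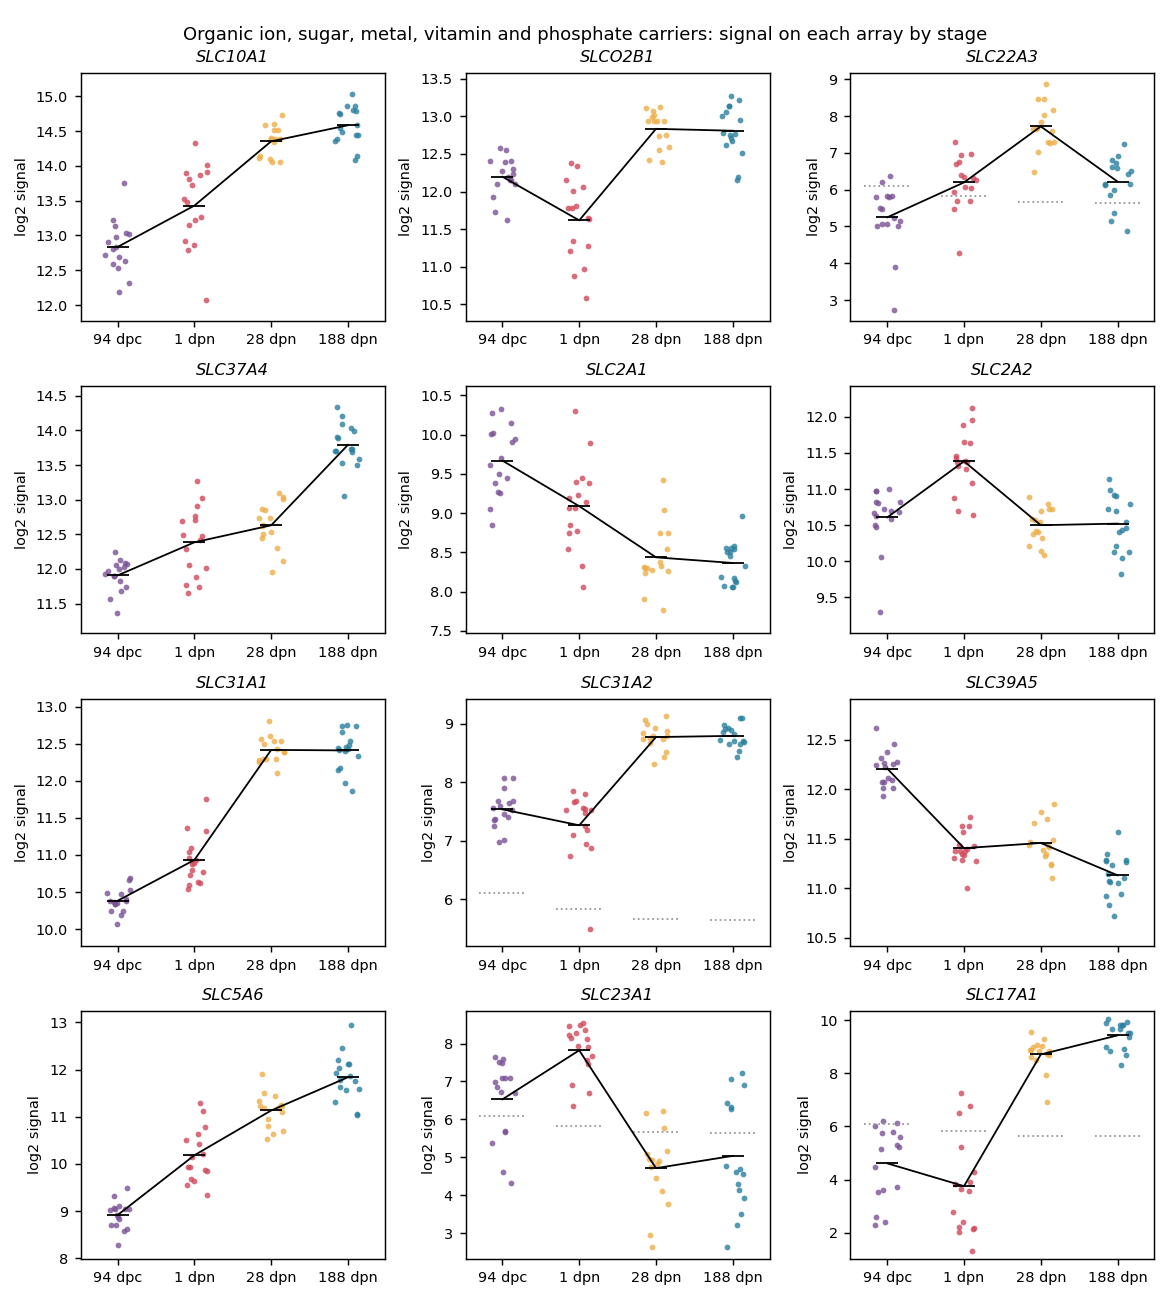
Log2 signal (y axis, own range in each panel) of 12 carriers of organic ions, sugars, metals, vitamins and phosphate on each array, in columns by stage with random horizontal offsets. Black bars joined by lines are stage means, and dotted grey lines are the mean background of the stage where it falls in the range. SLC31A1 and SLC31A2 step up between 1 dpn and 28 dpn, SLC37A4 is highest at 188 dpn with a median of 13.72, and SLC2A2 is highest at 1 dpn with a median of 11.38.

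A single newborn piglet stood apart in several carriers. Array 4 of 1 dpn had a log2 signal of 9.77 for SLC44A4, a choline carrier, where the other 15 arrays ran from 2.03 to 7.68 with a median of 4.07. It was also the highest of its stage for SLC38A1 with 9.76 (others 5.22 to 7.95) and for SLC33A1 with 11.30 (others 9.78 to 10.66), and the lowest for SLC25A1 with 10.57 (others 11.82 to 12.73) and for SLC25A4 with 11.69 (others 12.16 to 13.33). Leaving this array out changed the calls of SLC25A33 in period I and SLC7A7 in period II among the named members, as given above.

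The members under the filter were also fitted without it. Of the 39 not tested in period I 4 rose and 4 fell, of 35 in period II 1 rose and 5 fell, of 37 in period III 2 rose and 1 fell, and of 37 over the whole span 4 rose and 12 fell. Many of these signals lie near background, so the sizes of such changes are not exact. Array medians and background were highest at 94 dpc, and the calls of all probe-sets in the fit without a filter are not given here. The counts of rises and falls in that fit therefore do not set the members apart. Of the 38 members with several probe-sets 19 had at least 2 tested in period I, 21 in periods II and III each and 22 over the whole span, and 2, 2, 0 and 3 of them were called in opposite directions by their probe-sets.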

How the data were processed

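Liver RNA of 63 offspring was hybridised to Affymetrix porcine arrays. The deposited log2 signals come from GCOS 1.1.1 according to the processing notes of the authors, and on every array the linear signals have a trimmed mean of 500, with signals under 1 set to 0 on the log2 scale. The methods of the study describe GCRMA values, which these are not, so medians still differed between arrays. Annotation of the platform gave 1 symbol to 10069 of 23935 probe-sets that are no controls, several to 198 and none to 13668, and 5 probe-sets with a solute carrier symbol beside another were left out. Samples were grouped by the stage in their labels, and replicate numbers follow the order of deposition.

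Stages were compared with limma 3.58.1 in R 4.3.3 (lmFit and eBayes, two-sided), separately for periods I, II and III and the whole span, keeping each probe-set that exceeded the array median in at least 50% of the animals of either stage. A call needed an adjusted p below 0.05 (Benjamini-Hochberg, all tested probe-sets). Signals, counts and ranges were drawn up with Python 3.11.15 and pandas 2.3.3. The comparison was tested on simulated data. The alternatives were 2 other scalings, other filters, a joint fit, weights, a gene's mean over probe-sets, arrays left out and the labelling difference as a covariate. Depth is not defined for arrays, and their number limits the precision.

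Members, families and marker lists were chosen with earlier results of these data known. Genes were named by a rule, in each comparison the up to 4 largest called increases and decreases of a family, the 8 largest each way without overlap, and 27 genes fixed by name. Named outside it, after their values were seen, were SLC25A1, SLC25A3, SLC25A6, SLC2A4, SLC30A3, SLC38A9, SLC44A4, SLC4A4, SLC22A2 and SLC22A6 and the examples of genes under background. Of the 27 carriers fixed by name, 14 have no probe-set with a single symbol and were not analysed here, among them SLC40A1 and SLC25A13. A single array left out (array 4 of 1 dpn) was chosen after seeing the data.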

Additional observations from a re-analysis of the deposited data

How the results depend on the processing

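The counts of members called in periods I to III and over the whole span kept within 1.5 times the main count under most alternatives. No paired analysis was possible because each stage used other animals and the labels carry neither litter nor mother. In period I the labelling difference of the arrays as a covariate left 0 members that rose and 0 that fell (limma, adjusted p under 0.05, with 8 of 74 at an unadjusted p under 0.05), and 0 and 2 of all 12839 probe-sets. Labelling ranges of 94 dpc and 1 dpn do not overlap, nor do those of 94 dpc and 188 dpn, so age and labelling cannot be told apart in period I or over the whole span, where 53 members were called with the covariate. In periods II and III 56 and 39 were called with it. This covariate came from the spiked RNAs only. The actin difference of the pig RNA lay between −0.21 and 1.28 at 1 dpn and between 1.49 and 2.81 at 28 dpn. Those ranges do not overlap, so age and the actin difference cannot be told apart in period II. With this covariate the period I change became −0.051 for SLC38A10, −0.11 for SLC3A2, 0.12 for SLC15A2, 0.00156 for SLC1A4, −0.37 for SLC33A1, −0.57 for SLC12A4, 0.64 for SLC26A11, −0.34 for SLC39A7, 0.20 for SLC25A33 and −0.52 for SLC5A6, and over the whole span that of SLC11A1 became −0.033. A filter at the 75th percentile left 14, 20, 12 and 20 falling members in periods I, II, III and the whole span, since it tested 45, 50, 48 and 51 members. A change of at least 1 on the log2 scale was met by 10 rising and 7 falling members in period I, 9 and 13 in period II, 4 and 6 in period III and 17 and 16 over the whole span. With the mean of all probe-sets of a gene, the change of SLC25A33 in period I was 0.40. In period II it gave −0.51 for SLC7A7, −0.066 for SLC26A11, −0.31 for SLC25A38 and −0.36 for SLC44A2, and over the whole span −0.19 for SLC26A11 and −0.16 for SLC46A1. After quantile normalization the whole-span change was 0.00275 for SLC35A4, 0.10 for SLC35A3 and 0.045 for SLC52A2, and after centring 0.15 for SLC35A3 and 0.36 for SLC2A2. The cause of these reversals was not tested. Signals near background limit the size of changes such as those of SLC15A1, SLC1A2, SLC17A1 and SLC23A1.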
